A study of Bos taurus with 33 samples.

Results

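The transcripts described here are those of 7 genes of cholesterol synthesis and its control, chosen by symbol in the deposited tables and joined by Ensembl identifier, out of 17543 genes that appear in either table. They are HMGCS1 (ENSBTAG00000011839), FDFT1 (ENSBTAG00000012432), SQLE (ENSBTAG00000005498), LSS (ENSBTAG00000018936), CYP51A1 (ENSBTAG00000001992), DHCR7 (ENSBTAG00000016465) and INSIG1 (ENSBTAG00000001592). All 7 passed the filter on low values in both cell types.

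RNA was measured in pools made from 4 cumulus-oocyte complexes of adult postpartum beef cows, with the oocytes in 16 pools and their cumulus cells (CC) in 17. All cows received GnRH on day -9 and prostaglandin F2α on day -2. In the small (up to 11.7 mm, 6 oocyte and 6 CC pools) and large (from 12.7 mm, 6 and 6 pools) follicle classifications the cows had not shown estrus, and a GnRH injection on day 0 induced the gonadotropin surge. In the spontaneous classification (11.7 to 14.0 mm, 4 and 5 pools) the cows had shown estrus with a surge of their own and were not given that injection, so that the trigger of the surge, the injection and the follicle size cannot be told apart when spontaneous is compared with the other classifications. The labels give both 20 h and 23 h from injection or estrus to aspiration. Levels are given as CPM, the reads of a gene per 1000000 reads on all genes of its pool. Within a cell type, the pools of 1 classification come from separate complexes, and p-values measure the spread between such pools.

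Cells make cholesterol from acetyl-CoA through farnesyl diphosphate, squalene and lanosterol, or take it up from lipoproteins. When sterol in the membrane of the endoplasmic reticulum is low, SCAP carries the transcription factor SREBP2 to the Golgi, where it is cleaved and then raises transcription of genes of synthesis and uptake, and INSIG1 holds SCAP back when sterol is high. Mouse oocytes are known to depend on the surrounding CC for cholesterol, whereas CC and granulosa cells also use it to make progesterone.

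Depth ran from 7664375 to 17934916 reads on genes in oocyte pools, and from 1911600 to 5772431 in CC. Behind each value of the 7 genes stood 11 to 16804 reads in oocytes and 33 to 2692 in CC. By summed markers the cell types stood apart, since oocyte markers ran from 8934 to 12916 CPM in oocytes but reached 7.83 CPM in CC. Cumulus and granulosa markers summed to 3307 to 8738 CPM in CC and 149 to 636 CPM in oocytes, of which HAS2 alone gave 132 to 248 CPM. HAS2 went the other way, with a median of 186 CPM in oocytes and 50.5 CPM in CC. FOXL2 reached no more than 1.05 CPM in CC. Of 10 white blood cell markers 5 were retained in CC, with a summed 17.5 to 114 CPM, and of 6 theca markers 5, with 235 to 1327 CPM, although the theca enzyme CYP17A1 had a median of 0. Among CC pools, small replicate 3 stood apart with the fewest reads and 44.0% of its reads on mitochondrially encoded genes, compared with 12.6 to 31.6% in the other small pools. The share was 14.4 to 28.0% in large and 14.3 to 22.1% in spontaneous CC pools. Among oocyte pools, small replicate 3 stood apart in the same respect, at 5.0%, where all pools ranged from 0.846%. It also had the fewest reads of the oocyte pools. Whether the oocyte and CC pools with this number came from the same complexes is not given by the labels and was not tested.

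Each gene was first set beside itself in the 2 cell types. The tables were scaled separately, so these levels are a description without a test, and CPM is not per length, so different genes are not compared. HMGCS1, the cytosolic synthase that makes HMG-CoA, stood at 794 to 1293 CPM in oocytes (median 1031) and at 85.9 to 562 CPM in CC (median 264), with no overlap. INSIG1 was the other gene with more CPM in oocytes, at 63.7 to 159 (median 105) compared with 18.1 to 103 in CC (median 35.6). The 5 remaining enzymes were higher in CC by the median. SQLE, the squalene epoxidase, had a median of 27.8 CPM in oocytes and 184 CPM in CC. For FDFT1, the squalene synthase, the medians were 40.5 and 106 CPM. LSS, which folds the epoxide into lanosterol, had medians of 13.7 and 56.9 CPM. CYP51A1, the lanosterol 14α-demethylase, had 5.67 and 37.0 CPM, and DHCR7, the reductase of the last step to cholesterol, had 9.62 and 41.3 CPM. In each of these 5 enzymes the lowest CC pool lay below the highest oocyte pool. When mitochondrially encoded genes were left out of CPM, all 7 directions were the same.

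The same comparison was made for other genes of sterol supply. VLDLR, a receptor for triglyceride-rich lipoproteins, had medians of 9.90 CPM in oocytes and 48.9 CPM in CC. SCARB1, the receptor for high density lipoprotein, had 5.47 CPM in oocytes and 421 CPM in CC. STARD4, a carrier of sterol in the cytosol, had 6.77 and 11.1 CPM. SREBF2, which encodes SREBP2, was close in both, at 99.9 and 95.7 CPM, and its direction turned without mitochondrially encoded genes (101 and 122 CPM). SCAP had more in oocytes, at 72.8 and 31.6 CPM.

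The spread of the 7 genes among pools was also described. HMGCS1 varied little among the 16 oocyte pools (coefficient of variation 14.8%), and INSIG1 had 28.4%, whereas CYP51A1 reached 149%, with 74.6 CPM in small replicate 2 and 0.899 CPM in small replicate 4. In CC the coefficients of variation ranged from 22.7% for FDFT1 to 57.5% for DHCR7.

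In CC, the comparison of small with spontaneous follicles gave the most calls. Log2(CPM + 1) was compared with limma, a linear model that shares variance information across transcripts, and a transcript was called at a nominal p of 0.01 or less. DHCR7, INSIG1, SQLE, HMGCS1 and FDFT1 rose from small to spontaneous by this threshold, which is 5 of 7, while 2.38% of the 9712 transcripts tested were called. None of the 5 passed after Benjamini-Hochberg adjustment over all transcripts. A log2 fold change is given on the log2(CPM + 1) scale, positive when the second classification is higher.

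DHCR7 had 17.9 to 48.3 CPM in small CC pools (median 23.9, n = 6) and 112, 62.8, 96.6, 63.7 and 47.6 CPM in the spontaneous pools. Of the spontaneous pools 4 lay above every small pool, and 5 of 6 small pools lay below every spontaneous pool. The log2 fold change was 1.37 ± 0.28 (SE, adjusted p = 0.130), and the exact two-sided permutation test of mean CPM gave p = 0.00866, where the smallest possible was 0.00216.

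INSIG1 had 19.4 to 44.7 CPM in small CC pools (median 23.7) and 103, 34.9, 54.8, 58.1 and 36.4 CPM in spontaneous pools. The groups overlapped, with 3 spontaneous pools above all small pools. The log2 fold change was 0.97 ± 0.29 (SE, adjusted p = 0.363; exact permutation p = 0.0216).

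SQLE, which catalyses the first step that uses oxygen, had 58.0 to 214 CPM in small pools (median 118) and 319, 196, 258, 279 and 169 CPM in spontaneous pools. Again 3 spontaneous pools lay above all small pools. The log2 fold change was 0.96 ± 0.29 (SE, adjusted p = 0.363; exact permutation p = 0.0260).

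HMGCS1 had 85.9 to 402 CPM in small pools (median 163) and 562, 264, 287, 421 and 210 CPM in spontaneous pools. The highest small pool was replicate 3, the pool with 44.0% mitochondrially encoded reads, and the other 5 lay below every spontaneous pool. The log2 fold change was 0.95 ± 0.32 (SE, adjusted p = 0.418), and the exact permutation test gave p = 0.0779.

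FDFT1 had 52.4 to 121 CPM in small pools (median 88.0) and 151, 119, 115, 144 and 115 CPM in spontaneous pools. Replicate 3 was again the highest small pool, and the other 5 lay below all spontaneous pools. The log2 fold change was 0.59 ± 0.20 (SE, adjusted p = 0.419; exact permutation p = 0.0173).

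CYP51A1 and LSS were not called. CYP51A1 had 10.1 to 88.9 CPM in small pools (median 29.4) and 64.1, 42.3, 49.6, 59.0 and 37.0 CPM in spontaneous pools, with a log2 fold change of 0.71 ± 0.37 (SE, adjusted p = 0.618). Small replicate 3 held the highest CYP51A1 value of all 17 CC pools. LSS had 18.5 to 129 CPM in small pools (median 52.2) and 113, 50.9, 83.5, 81.7 and 50.9 CPM in spontaneous pools, with a log2 fold change of 0.51 ± 0.36 (SE, adjusted p = 0.746). Here small replicate 6 exceeded every spontaneous pool. In none of the 7 genes were the small and spontaneous groups free of overlap, and 1.16% of all transcripts had groups that did not overlap.

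**Figure D1:**
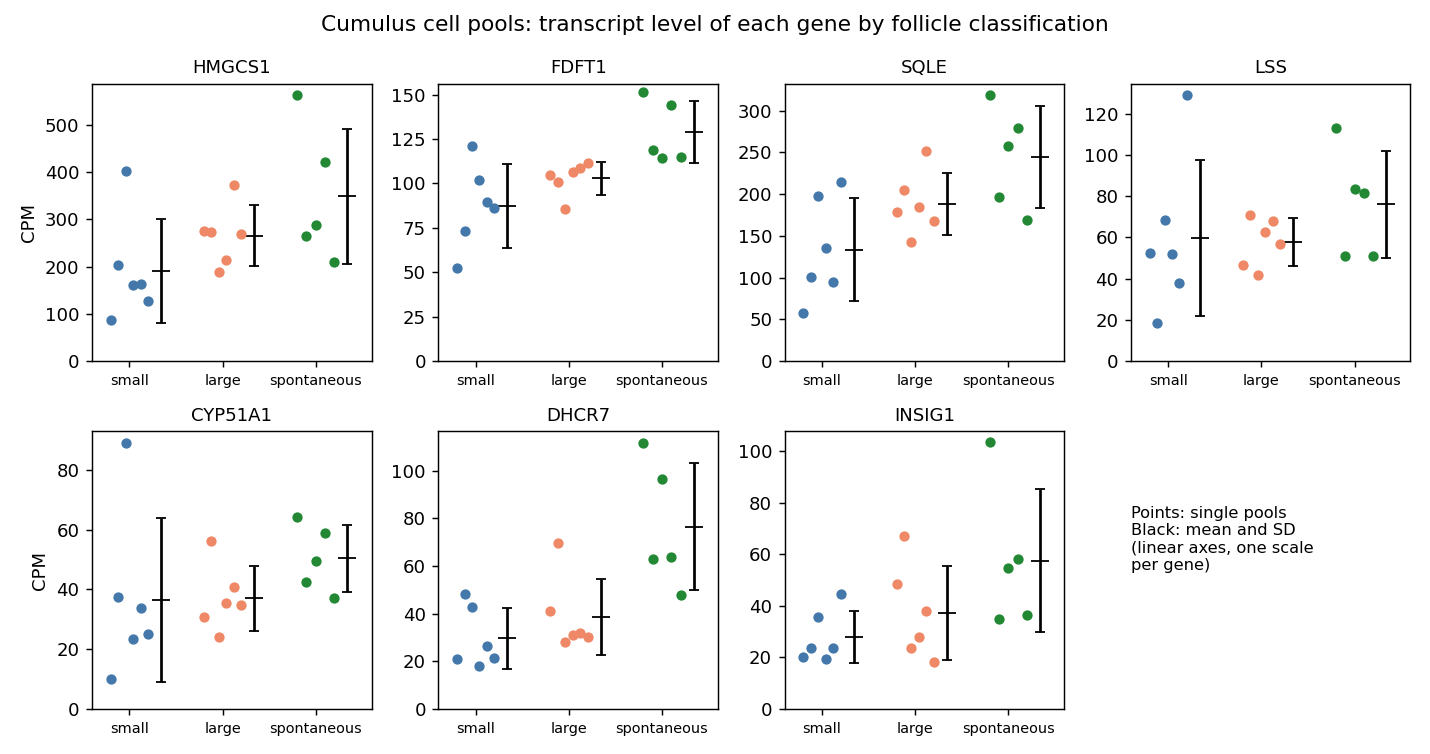
CPM of each gene in the 17 CC pools (vertical axes, linear, a separate scale for each gene) by follicle classification (horizontal axes), with points for pools and black marks for the mean and SD. DHCR7 runs from 17.9 to 48.3 CPM in small and from 47.6 to 112 CPM in spontaneous pools, and the isolated high small pool in HMGCS1 and CYP51A1 is replicate 3.

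The count of 5 depended on the scaling of the libraries and on the filter, with 2 called when no filter was used. The median log2 fold change of all 9712 transcripts from small to spontaneous was 0.16, and 71.9% of them were positive, beside a median of 0.95 and 7 of 7 positive among these genes. The share of reads on mitochondrially encoded genes moved with the groups, with a median of 23.5% in small and 15.6% in spontaneous CC pools. After median-of-ratios scaling the median of all transcripts was 0.01 and that of the 7 genes 0.79, and after leaving mitochondrially encoded genes out of CPM they were -0.003 and 0.77. All 7 were positive under both, but DHCR7 was then the 1 gene called, with log2 fold changes of 1.21 and 1.20. Without mitochondrially encoded genes, small replicate 3 held the highest HMGCS1 (718 CPM) and FDFT1 (217 CPM) values of all CC pools. The part of that pool in the lost calls was not tested. Across all transcripts 221 of 231 calls were higher in spontaneous as deposited, 79 of 127 after median-of-ratios scaling and 69 of 127 without mitochondrially encoded genes. Reads on genes had a median of 5126690 in spontaneous CC pools (4535826 to 5510272) and 3276812 in small pools (1911600 to 5772431). These ranges overlapped. Summed cumulus and granulosa markers were 3443 to 4929 CPM in small and 4354 to 8738 CPM in spontaneous pools. The part of these measures in the result was not tested beyond the scalings given. In pooled cells, fewer cells of a type and less RNA per cell cannot be told apart.

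Without small replicate 3, CYP51A1 joined the others and 6 of 7 were called. Without spontaneous replicate 1, which had the highest value of HMGCS1, FDFT1, SQLE, DHCR7 and INSIG1, 1 of 7 was called, and without spontaneous replicate 4 there were 2.

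Between large and spontaneous CC pools, DHCR7 passed the nominal threshold but not the adjustment over all transcripts. It had 28.0 to 69.8 CPM in large pools (median 31.3, n = 6), and of these pools 5 lay below every spontaneous pool. The log2 fold change was 0.97 ± 0.26 (SE, adjusted p = 0.515; exact permutation p = 0.0216), and this was the 1 call among the 7 genes, where 1.66% of all transcripts were called. DHCR7 stayed past the nominal threshold under every alternative in both comparisons with spontaneous pools. FDFT1 was the 1 gene whose groups did not overlap, at 85.5 to 111 CPM in large and 115 to 151 CPM in spontaneous pools, as did 0.865% of all transcripts. Its log2 fold change was 0.32 ± 0.15 (SE, adjusted p = 0.699), not past the threshold, and the exact permutation p was 0.00433. The other 5 genes had log2 fold changes between 0.34 (HMGCS1) and 0.64 (INSIG1), uncalled, beside a median of 0.11 for all transcripts.

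Small and large CC pools gave 0 calls among the 7 genes, where 0.813% of all transcripts were called. SQLE had 143 to 251 CPM in large pools (median 181), with a log2 fold change from small of 0.61 ± 0.26 (SE, adjusted p = 0.999), and HMGCS1 had 188 to 373 CPM (median 271), with 0.61 ± 0.28 (SE, adjusted p = 0.999). These were the 2 of 7 at an unadjusted p under 0.05, and edgeR and DESeq2 called 0. The other 5 had log2 fold changes between 0.16 (LSS) and 0.39 (DHCR7). No gene had groups free of overlap, beside 0.247% of all transcripts. Without small replicate 3, SQLE (0.75) and HMGCS1 (0.86) were called.

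The medians of all 7 genes in CC were ordered small, large, spontaneous, and in oocytes the same order was seen in 1 of 7. The share of all transcripts with this order was not counted. Of all CC transcripts, 56.0% had positive log2 fold changes from small to large and 65.6% from large to spontaneous. The 7 genes were also correlated over CC pools, so their orders do not count as separate observations. Neighbouring classifications overlapped in every gene except FDFT1 between large and spontaneous. By the mean, LSS departed from the order in CC, with 59.7 ± 37.9 CPM in small and 57.8 ± 11.6 CPM in large pools (SD, n = 6 each). The 3 comparisons share pools, so their agreement is not a repeat.

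In oocytes, none of the 7 genes was called by limma between any follicle classifications, 0 of 7 had an unadjusted p under 0.05, and edgeR and DESeq2 called 0. The share of all transcripts called was 0.655% from small to large, 0.774% from small to spontaneous and 0.943% between large and spontaneous. DHCR7 came nearest, with 2.14 to 17.6 CPM in small (median 7.23, n = 6) and 6.42 to 24.5 CPM in large pools (median 19.5, n = 6). The groups overlapped, with a log2 fold change of 1.09 ± 0.54 (SE, adjusted p = 0.997) and an exact permutation p of 0.0346. In spontaneous oocyte pools it had 17.4, 13.2, 3.72 and 6.91 CPM.

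HMGCS1 differed least between oocyte pools. It had 794 to 1293 CPM in small (median 1053), 808 to 1231 CPM in large (median 1093) and 990, 885, 966 and 937 CPM in spontaneous pools. Its log2 fold changes were 0.03 ± 0.13 from small to large, -0.14 ± 0.14 from small to spontaneous and, between large and spontaneous, -0.18 ± 0.12 (SE), with adjusted p-values of 0.997, 0.987 and 0.971. INSIG1 likewise had log2 fold changes between -0.04 and 0.13 with SEs of 0.24 to 0.27. For CYP51A1 the SEs were 0.70 to 0.88, so that changes of the size seen in CC were within the error of the oocyte pools.

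SQLE had 9.81 to 47.4 CPM in small and 17.4 to 39.9 CPM in large oocyte pools, and 18.3, 50.8, 59.2 and 43.5 CPM in spontaneous pools. Its log2 fold change from small to spontaneous was 0.75 ± 0.49 (SE, adjusted p = 0.987). FDFT1 had 19.7 to 84.5 CPM in small and 38.9 to 66.01 CPM in large pools, and 40.3, 35.9, 33.9 and 45.8 CPM in spontaneous pools. LSS spanned 3.76 to 40.2, 7.10 to 22.3 and 10.3 to 40.9 CPM in small, large and spontaneous pools. None of the 7 genes had groups free of overlap, beside 0.258%, 0.903% and 0.913% of all transcripts in the 3 comparisons. Whether the oocyte and CC changes differ was not tested, because the tables were scaled separately.

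**Figure D2:**
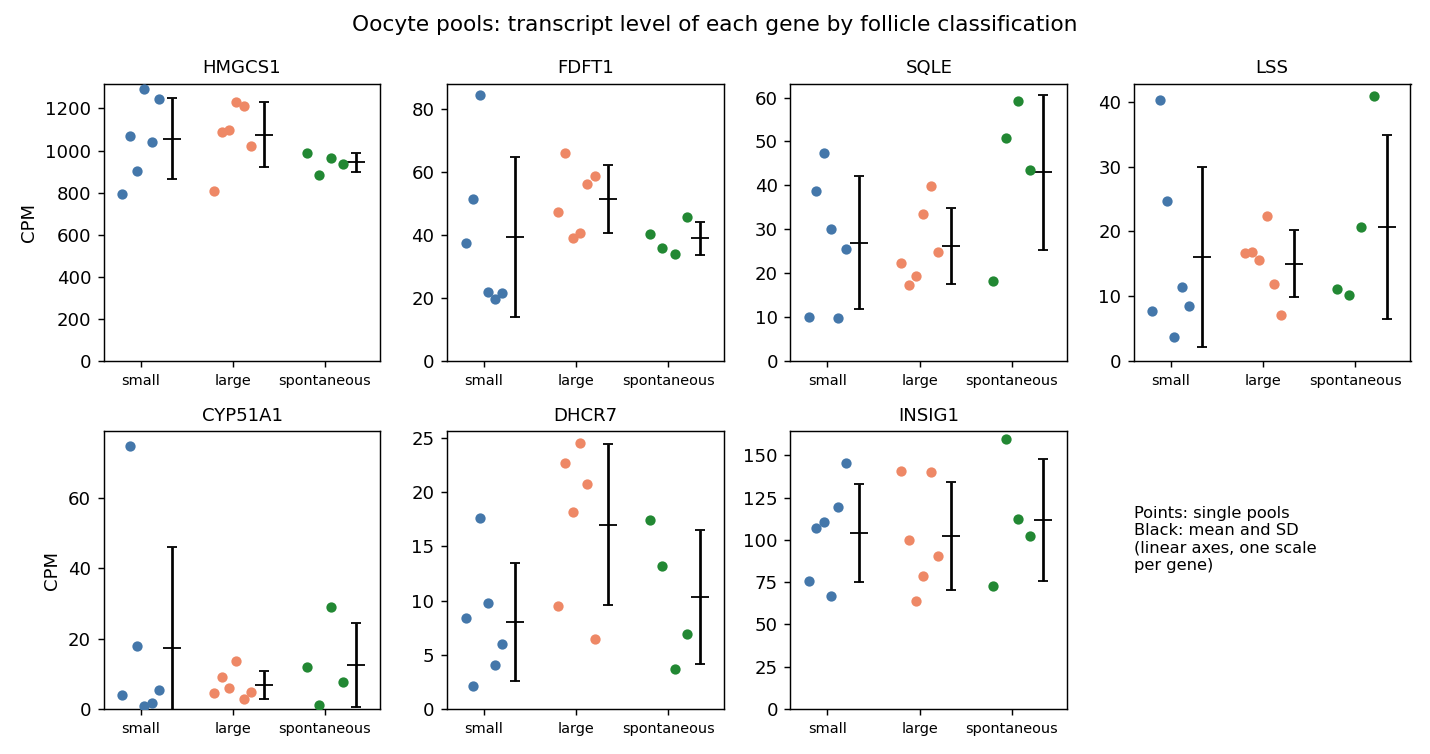
CPM of each gene in the 16 oocyte pools (vertical axes, linear, a separate scale for each gene) by follicle classification (horizontal axes), with points for pools and black marks for the mean and SD. All groups overlap, HMGCS1 stays between 794 and 1293 CPM, and a single small pool reaches 74.6 CPM in CYP51A1.

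**Figure D3:**
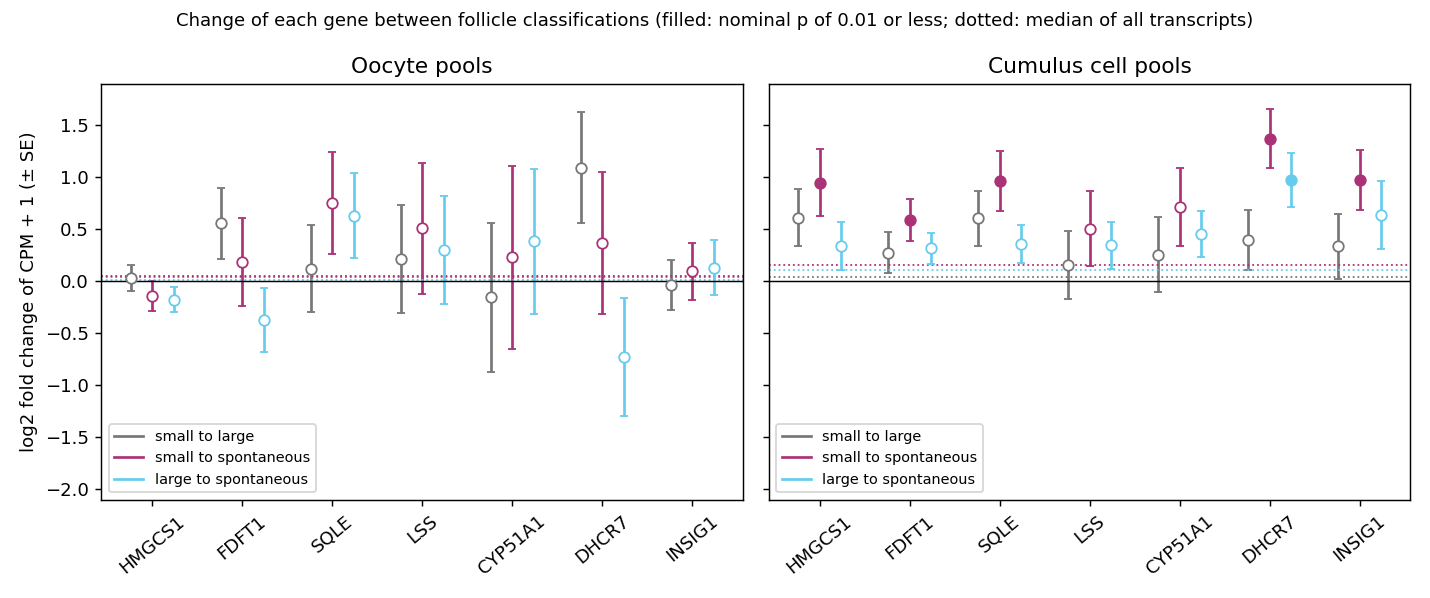
Log2 fold change of CPM + 1 with its SE (vertical axis) for each gene (horizontal axis) in the 3 comparisons, in oocytes on the left and CC on the right. Filled points passed a nominal p of 0.01, and dotted lines are the median of all transcripts tested in that comparison; in CC all points lie above 0, and the highest is DHCR7 from small to spontaneous at 1.37.

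The other genes of the pathway were taken from lists of its steps. Of 21 synthesis enzymes listed, 20 were retained in CC, and all 20 had positive log2 fold changes from small to spontaneous, with a median of 0.61. Of all 9712 transcripts, 71.9% were positive and 2.38% were called, with 221 of 231 calls higher. Called were 7 of the 20 enzymes, all higher. Besides DHCR7, SQLE, HMGCS1 and FDFT1 these were ACAT2, which joins acetyl-CoA units (1.03 ± 0.22, SE), FDPS, the farnesyl diphosphate synthase (0.62 ± 0.18), and NSDHL, which acts in C4 demethylation (0.58 ± 0.20). In ACAT2 and FDPS the small and spontaneous groups did not overlap, as in 1.16% of all transcripts. The adjusted p-values of ACAT2, FDPS and NSDHL were 0.168, 0.350 and 0.419. After median-of-ratios scaling 19 of 20 were positive and ACAT2 and DHCR7 were called. With edgeR and with DESeq2 17 of 20 were positive. DHCR7 was then the 1 enzyme called by edgeR, and DESeq2 called ACAT2 and DHCR7.

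INSIG1 was the 1 gene called of 14 retained genes of SREBP control and sterol sensing, whose median log2 fold change was 0.28 from small to spontaneous. Over all transcripts the median was 0.16, and 2.38% were called. SREBF2 had 0.32 and SCAP 0.84, uncalled. Of 11 genes of uptake and lysosomal release, LRP8, a receptor for apolipoprotein E (1.23 ± 0.35), SCARB1 (1.02 ± 0.31) and NPC1, which passes cholesterol out of the lysosome (0.60 ± 0.20), rose past the threshold, with adjusted p-values of 0.346, 0.363 and 0.405. VLDLR had 0.53 ± 0.20 and STARD4 0.56, uncalled. The VLDLR groups did not overlap, at 23.7 to 46.8 CPM in small and 48.4 to 56.3 CPM in spontaneous pools, as in 1.16% of all transcripts. Large CC pools had 42.9 to 125 CPM of VLDLR, with 5 of 6 above every small pool. After median-of-ratios scaling, and with edgeR or DESeq2, 0 of the 11 were called.

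The export and esterification list had 3 of 6 genes called higher, namely ABCA1, which passes cholesterol to apolipoproteins (1.23 ± 0.42), SOAT1, which esterifies it (0.77 ± 0.21), and APOA1 (1.75 ± 0.51). Fatty acid synthesis had 2 of 7, ELOVL6 (1.11 ± 0.29) and FADS1 (0.83 ± 0.27). These counts are from small to spontaneous, where 2.38% of all transcripts were called. After median-of-ratios scaling, without mitochondrially encoded genes, and with edgeR or DESeq2, ABCA1 was no longer called and 0 of the 7 genes of fatty acid synthesis were. Among 4 genes of the first steps from cholesterol to steroids 0 were called by limma, and 0 had an unadjusted p under 0.05, while edgeR called 1 (STAR, chosen after its values were seen) and DESeq2 0. From large to spontaneous, ACAT2 (0.72 ± 0.19), FDPS (0.60 ± 0.20), LRP8 (1.5 ± 0.50), SOAT1 (0.82 ± 0.17), ABCA1 (1.85 ± 0.63) and ELOVL6 (0.74 ± 0.21) were called higher, with adjusted p-values of 0.313 to 0.567, where 1.66% of all transcripts were called. FDPS, LRP8 and ABCA1 lost these calls under each of the same 4 alternatives. In oocytes 1 gene of all these lists was called. It was TM7SF2, a sterol 14-reductase, which was lower in spontaneous than in large pools (-1.39 ± 0.46, adjusted p = 0.954). Of all oocyte transcripts 0.943% were called between large and spontaneous pools. The share was 0.655% between small and large pools and 0.774% between small and spontaneous pools. Whether 1 call among the listed genes exceeds these shares was not tested.

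**Figure D4:**
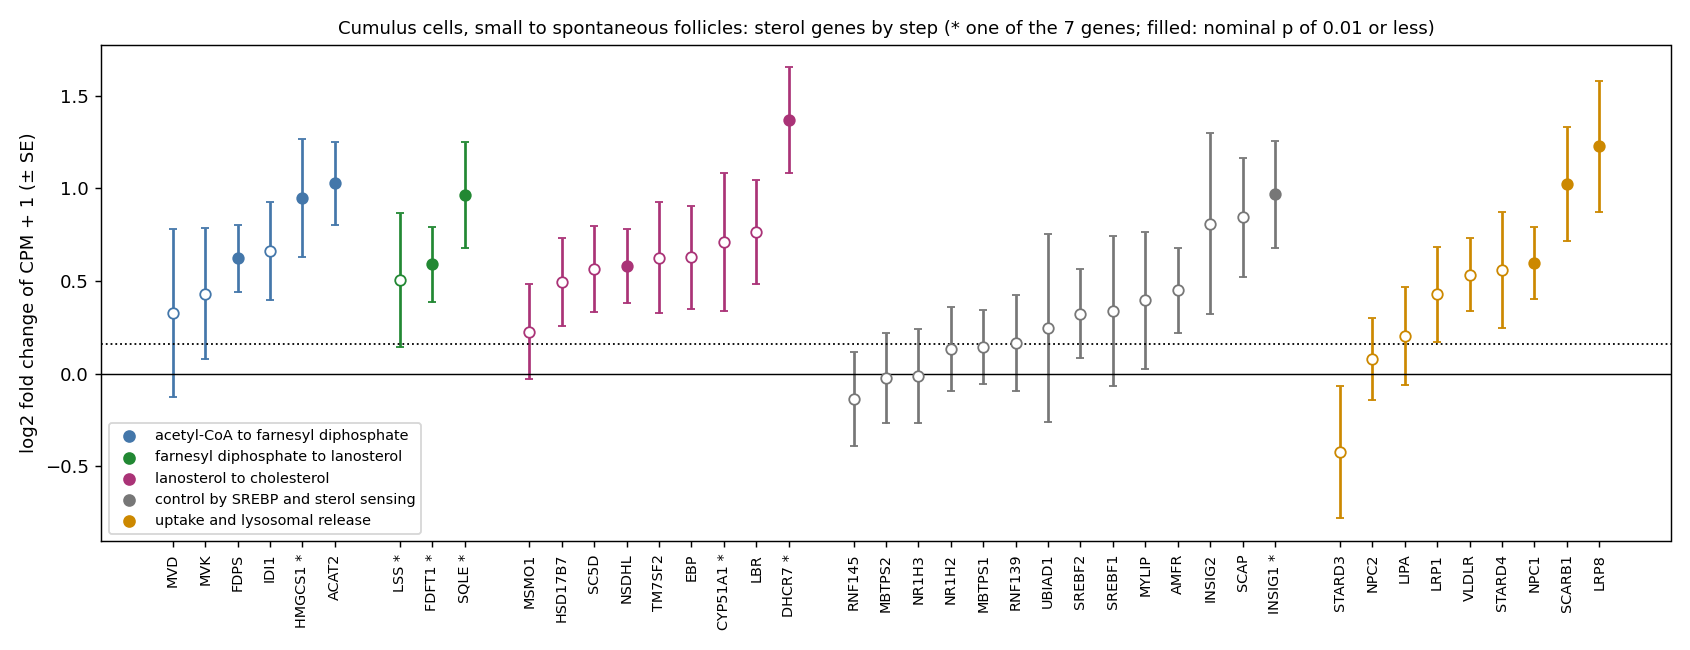
Log2 fold change of CPM + 1 from small to spontaneous CC pools with its SE (vertical axis) for retained genes (horizontal axis), coloured by step; asterisks mark the 7 genes, filled points passed a nominal p of 0.01, and the dotted line is the median of all transcripts (0.16). The synthesis enzymes shown lie above 0, up to DHCR7 at 1.37, whereas the control and uptake genes lie on both sides of 0.

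The correlation between the 7 genes was described over the pools of each cell type, and the difference between cell types was not tested. All 21 pairs had a positive Pearson r on log2(CPM + 1) over the 17 CC pools, with a median of 0.68 and a range of 0.24 to 0.88, where the median over all pairs of retained transcripts was 0.10. Over the 16 oocyte pools 12 of 21 pairs were positive, with a median r of 0.10 and a range of -0.30 to 0.74, where all pairs had a median of 0.005. The points of a pair share a library, its depth and its scaling. Within classifications, with each value centred on the mean of its group, the median r in CC was 0.61 and 20 of 21 pairs were positive. Median-of-ratios scaling gave 0.67 in CC, beside a median of -0.0008 over all pairs of transcripts.

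In CC the pair with the highest r was HMGCS1 and CYP51A1, with r = 0.88 and Spearman's rho = 0.85. Over 100000 permutations p was 1e-05 for r, the smallest they can give, and 4e-05 for rho, which were 0.00021 and 0.00084 after adjustment over the 42 pairs of both cell types. Without the 2 pools farthest from the median of HMGCS1, r was 0.80. LSS was the least alike, with r of 0.24 with DHCR7, 0.27 with CYP51A1 and 0.32 with HMGCS1. In oocytes the highest pair was LSS and CYP51A1, with r = 0.74 (permutation p = 0.00094, adjusted p = 0.00395) and rho = 0.73 (permutation p = 0.00188, adjusted p = 0.00718), and r was 0.79 without the 2 farthest pools of LSS. HMGCS1 had r between -0.30 and 0.14 with the other 6 genes in oocytes.

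**Figure D5:**
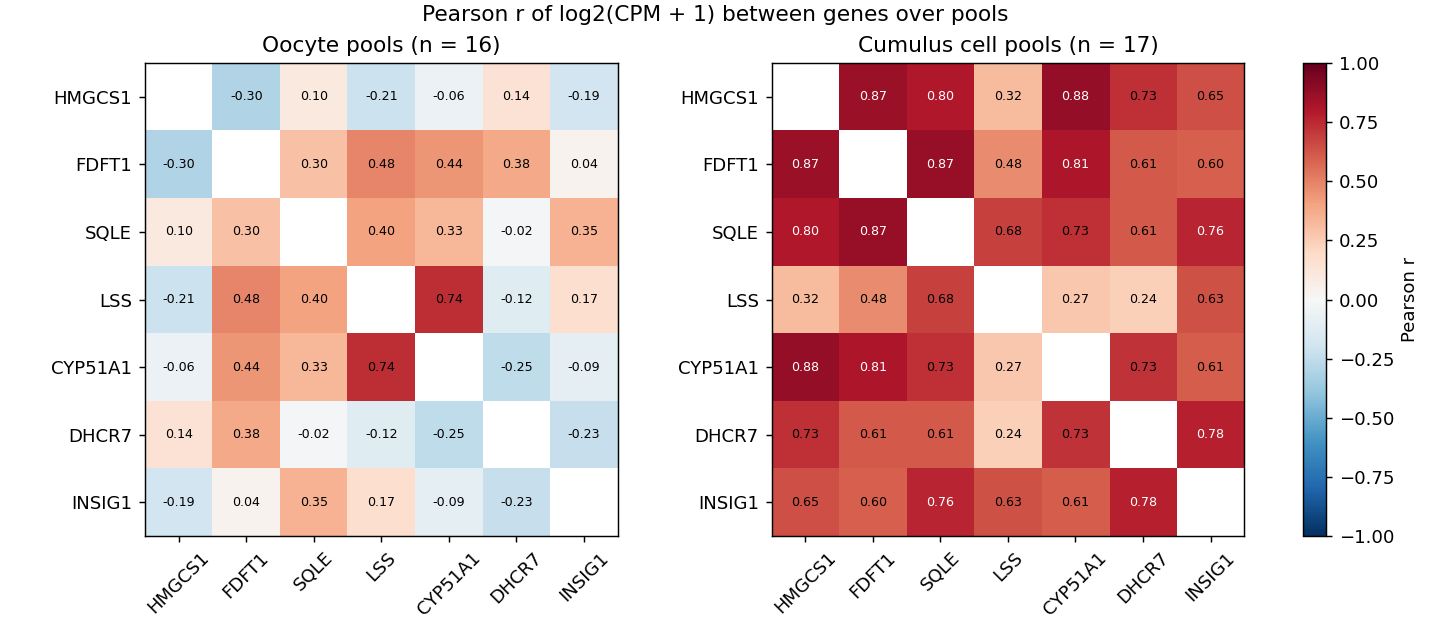
Pearson r of log2(CPM + 1) between each pair of genes over 16 oocyte pools on the left and 17 CC pools on the right, from -1 (blue) to 1 (red). In CC every cell is positive and the row of LSS is the palest, and in oocytes the 1 strong cell is LSS with CYP51A1 at 0.74.

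The pools at the ends of this shared pattern in CC can be named. After each gene was standardised, spontaneous replicates 1, 4 and 3 had the highest means of the 7 genes, and in each of them and in small replicate 3 all 7 genes were above their mean over pools. Small replicates 1, 4 and 5 and large replicate 3 had 0 of 7 above the mean. The mean profile had r of 0.18 with log2 reads on genes, -0.09 with the share of mitochondrially encoded reads, 0.22 with summed cumulus and granulosa markers, 0.06 with theca markers and 0.25 with white blood cell markers over the 17 pools. It had 0.43 with red blood cell markers, positive for 7 of 7 genes, although 0 of these 5 markers were retained and their sum ran from 0 to 4.18 CPM. With oocyte markers it had -0.30 and with endothelium markers -0.26. In oocytes the profile had r of -0.48 with endothelium markers, -0.35 with white blood cell markers, -0.26 with oocyte markers, -0.12 with red blood cell markers, -0.06 with theca markers and 0.30 with cumulus and granulosa markers. It had -0.19 with log2 reads on genes and 0.22 with the mitochondrially encoded share. The endothelium sum in oocytes came mainly from TEK (59.3 to 104 CPM) and KDR (12.7 to 74.3 CPM). The white blood cell sum there came mainly from CSF1R (111 to 254 CPM), while PECAM1, ESAM, PTPRC and CD14 had a median of 0. All these r are descriptions over pools, and the part of these measures in the pattern was not tested.

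Among the 9705 other retained transcripts in CC, the 5 most like the mean profile of the 7 genes over the 17 pools included ELOVL6, which elongates fatty acids (r = 0.92), RASGRP3, an activator of Ras (0.87), ACAT2 (0.86) and IDI1, the isopentenyl diphosphate isomerase (0.86). NSDHL came at place 6, FADS1 at place 12, FDPS at place 23 and NPC1 at place 44. The 14 other synthesis enzymes retained had a median r of 0.58, compared with -0.02 for all other transcripts. SREBF2 had 0.39, SCAP 0.24 and SREBF1 -0.20. Of the transport genes, SCARB1 had 0.44 and ABCA1 -0.08.

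In oocytes the 5 transcripts most like the mean profile, among 10069, were NUCB1 (r = 0.88), PRPS1 (0.87), CALR (0.84), MAFF (0.83) and NDUFB4 (0.79), over 16 pools, and none of them is in the sterol lists. CALR encodes the chaperone calreticulin, PRPS1 an enzyme of nucleotide synthesis and NDUFB4 a subunit of complex I. PRPS1 was thinly covered, at 0 to 7.76 CPM. The 12 other synthesis enzymes retained in oocytes had a median r of 0.14, compared with 0.04 for all other transcripts.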

How the data were processed

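Per the labels and the study's methods, the RNA of each pool was amplified as cDNA before single-end sequencing. After trimming, the authors used Hisat2 with the UMD3.1 genome and featureCounts with Ensembl genes, and deposited CPM in 1 table per cell type. Whole reads could be recovered from the CPM (100% of values, within 0.02 reads). At these depths 3 reads, which a count of 0 allows, are worth up to 0.391 CPM in oocytes and 1.57 CPM in CC; this covers counting error only. FDFT1 was matched without regard to case, and FDPS by its gene name. A genome of the authors' build was not used here, so no coordinates are given.

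A transcript was tested when it reached 5 CPM in 4 or more oocyte pools, or in 5 or more CC pools (10076 and 9712 transcripts), two-sided and without covariates, with limma on log2(CPM + 1) between 2 classifications. Calls had a nominal p of 0.01 or less, and in oocyte comparisons with small pools also without small replicate 3. Exact permutation tests of mean CPM stood beside them, 42 for the 7 genes, not adjusted among themselves. On simulated data, 200 transcripts were changed by a log2 fold of 2, up or down. Of these 68.5 to 95.5% were recovered, and 0.881 to 0.999% of unchanged ones were called. Every log2 fold change given for the 7 genes was smaller, and recovery at such sizes was not simulated. Alternatives included edgeR and DESeq2 on the recovered reads, other scalings and filters, 1 fit over all 3 classifications, a replicate block and each pool left out. Named were the 7 genes, fixed genes of the pathway, list genes past the threshold and the 5 transcripts most like the mean profile. The results of some genes are not reported here. The genes and lists were chosen with earlier results of these data known. SREBF1 and the genes ranked after the fifth in likeness were named after their values were seen. Replicate numbers mark no pairing between classifications. Per the study's methods, CC pools came from the same complexes as the oocyte pools. Whether equal numbers mark such pairs was not checked, and no result uses that pairing. Libraries of 1 group differed by more than sampling noise, with a chi-square of at least 14.9 per degree of freedom. Software was DESeq2 1.42.0, edgeR 4.0.16 and limma 3.58.1 in R 4.3.3.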

Additional observations from a re-analysis of the deposited data

Results flagged for a closer look

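FDFT1 in CC of large follicles had a low pool, replicate 3, at 85.5 CPM, where the other 5 large pools lay between 101 and 111 CPM. Its gap to the nearest pool was 0.633 of the range of the group on the log2(CPM + 1) scale, above Dixon's critical value for a group of 6. Of 42 groups of the 7 genes checked this was the 1 found, and chance gives about 1 in 20.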

How the results depend on the processing

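Among the 7 genes, 0 were called in each of the 3 oocyte comparisons, and 1 from large to spontaneous CC pools, under every alternative run. From small to large CC pools the count of 0 ranged from 0 to 2 when pools were left out in turn. From small to spontaneous CC pools the 5 became 2 without a filter, 1 with median-of-ratios scaling, 1 with CPM without mitochondrially encoded genes, 1 with edgeR's quasi-likelihood test, 2 with DESeq2 and 1 where both were required, and 1 to 6 when pools were left out. Over all transcripts that comparison gave 231 calls with limma, 128 with edgeR and 217 with DESeq2. The share of positive log2 fold changes moved with the scaling, and the cause of the other losses was not tested. The direction of the 9 single log2 fold changes followed was the same in all 191 alternatives, of which 43 moved a called gene below the threshold and 3 moved an uncalled gene past it. DHCR7 kept its call from small to spontaneous in CC, with log2 fold changes of 1.14 to 1.53 and adjusted p-values of 0.049 to 0.627. Replicate numbers were not paired in the labels. Within a cell type, deviations of same-numbered pools of different classifications had a median r of -0.06 to 0.03. With the replicate block 4 of 7 genes were called from small to spontaneous CC pools, 1 from large to spontaneous and 0 elsewhere. The median r between the genes was 0.61 to 0.68 in CC under other scalings, ranks and centring, and 0.63 to 0.72 with pools left out; in oocytes it was 0.06 to 0.10, and 0.023 to 0.205 with pools left out, the highest without small replicate 6. Leaving out pools and mitochondrially encoded genes for r was added after seeing the data. CC pools hold fewer reads than oocyte pools, and 4 to 6 pools per classification limit the precision.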
